A study of Mus musculus with 2 samples.

Results

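The genes of 5 groups of splicing factors were followed in bone marrow-derived macrophages of the mouse strain C57BL/6J, at the level of the gene and of each annotated transcript. The groups were the SR proteins (Srsf genes), Tra2a and Tra2b, the heterogeneous nuclear ribonucleoproteins (hnRNPs, Hnrnp genes), the subunits of SF3A and SF3B (Sf3a and Sf3b genes), and the U2AF genes. Members were chosen by symbol and by having at least 1 protein-coding transcript: 47 genes matched by symbol, 45 were kept, and the pair left out, Hnrnpa1l2-ps and Hnrnpa1l2-ps2, had no such transcript. They were 45 of 55536 annotated genes and carried 388 annotated transcripts.

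Both libraries came from 1 group of cells, so no condition was compared. Per the labels, the cells received 100 ng/ml of lipid A for 12 h, were washed and rested for 12 h, and then received 100 ng/ml of lipid A again for 120 min. Lipid A is the part of bacterial lipopolysaccharide that activates Toll-like receptor 4. Some label fields name the agent lipoprotein A instead, and which name is right was not settled here. Sex and age were not recorded, both libraries carry the same donor entry, and no untreated or once-treated cells are analysed here. The libraries, called replicate 1 and replicate 2, are biological replicates of polyadenylated RNA per the labels. With 2 libraries, all that follows is description: both values are given, no test was made, and a difference between them is a measure of spread.

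Pre-mRNA splicing removes introns in the nucleus, on a machine of small nuclear ribonucleoproteins (snRNPs) built anew on each intron. U2AF binds the 3' splice site and SF3A and SF3B hold the U2 snRNP on the branch site, while SR proteins mostly favour and hnRNPs often oppose the use of nearby exons. Many SR and hnRNP genes are known to limit their own output: a surplus of the protein drives a splice choice in its own RNA that puts a stop codon ahead of an exon junction, and such an RNA is a target of nonsense-mediated decay (NMD). The annotation used here has a type for such transcripts, beside protein-coding, retained-intron and processed transcripts, although the label does not follow the stop's place alone.

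The sequencing depth was 45341960 expected counts assigned to genes in replicate 1 and 32087664 in replicate 2. All 8 macrophage markers were at 10 TPM (a transcript level scaled for length and library total) or more in both libraries, and T cell, B cell and stromal markers that were measured were each under 1 TPM on average. Some neutrophil markers differed between the libraries: S100a8 was at 25.8 TPM in replicate 1 and 3.72 in replicate 2, S100a9 at 26.4 and 1.18, and Ngp at 7.99 and 0.4. Elane, Mpo and Camp were under 1 TPM in both. The 6 markers summed to 61.1 and 5.57 TPM. The platelet gene Pf4, which macrophages also express, was at 271 and 95.2 TPM. The part of these cells or RNAs in any difference between the libraries was not tested.

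Splicing factor genes were expressed almost throughout: 43 of 45 members were at 10 TPM or more in both libraries. Over all 21901 genes with a protein-coding transcript the share at that level was 27.4%. The exceptions were Sf3b5, a small subunit of SF3B, at 9.22 and 5.6 TPM in replicates 1 and 2, and Srsf12, at 0 reads in both. A count of 0 allows up to 0.0662 CPM (read counts scaled to the library total) in replicate 1 and 0.0935 in replicate 2, for counting error only. The median member had a mean of 65.9 TPM, against 39.5 TPM among all protein-coding genes that reached 10 TPM. Summed over members the level was 4002 TPM in replicate 1 and 5072 TPM in replicate 2.

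**Figure D1:**
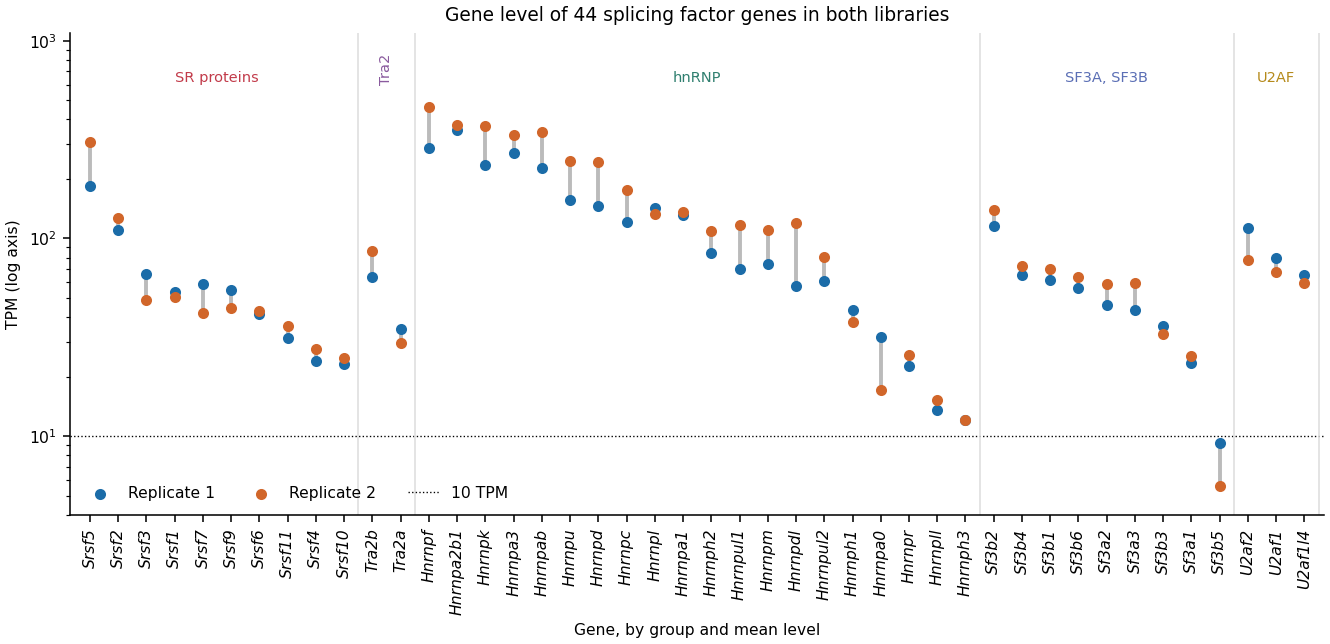
Gene level in TPM (log axis) of the 44 members with reads, grouped by family and ordered by mean; blue and orange points are replicates 1 and 2, grey bars join them, and the dotted line marks 10 TPM. All hnRNP genes lie above the line, and Sf3b5 lies below it in both libraries.

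Among SR proteins, which carry RNA-binding domains and a tail rich in arginine and serine, Srsf5 had the highest level, with 185 TPM in replicate 1 and 309 in replicate 2. Srsf2 followed with 110 and 128 TPM, and Srsf3, the smallest of the family, with 65.9 and 49.1 TPM. Srsf1, the founding member, was at 53.5 and 50.5 TPM. Srsf5 and Srsf2 were the 2 highest in both libraries, whereas the order of Srsf3 and Srsf1 turned between them. The other 6 expressed SR genes ranged from 23.1 to 58.7 TPM over both libraries. Tra2b, an SR-like protein that binds GAA repeats in exons, was at 63.7 and 86.9 TPM, above its paralog Tra2a at 35.0 and 29.6 TPM in both libraries.

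The hnRNP genes had the highest median of the 5 groups in both libraries, 103 TPM in replicate 1 and 126 in replicate 2. Hnrnpf, which binds runs of G, was at 285 and 461 TPM. Hnrnpa2b1 was at 353 and 375 TPM, Hnrnpk, a binder of C-rich RNA, at 236 and 372 TPM, and Hnrnpa3 at 270 and 335 TPM. The order of these 4 genes differed between the libraries. The lowest hnRNP gene was Hnrnph3, at 12.1 TPM in both libraries.

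SF3B subunits had unequal mRNA levels, although their proteins work in 1 complex. Sf3b2 was at 116 and 139 TPM, Sf3b4 at 65.2 and 72.4 TPM, Sf3b1, whose protein clamps the branch site, at 61.7 and 70.2 TPM, and Sf3b6 at 56.0 and 63.6 TPM. Sf3b2 stood above the other 8 genes of the group in both libraries. In U2AF, the large subunit gene U2af2 was at 113 and 77.5 TPM, the small subunit gene U2af1 at 79.7 and 67.4 TPM and its relative U2af1l4 at 65.4 and 59.5 TPM, in that order in both libraries. The value of U2af1l4 is uncertain, since its leading transcript shares 861 of its 884 bases with exons of Gm49396 on the same strand.

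Between the libraries, none of the 44 members with reads differed by 2-fold or more in scaled expected counts. Over all 12552 genes with enough counts, 11.3% did, 6.09% higher in replicate 1 and 5.16% higher in replicate 2. The member furthest apart was the intronless Hnrnpa0, 1.86-fold higher in replicate 1 (31.7 and 17.1 TPM). The median size of the log2 ratio was 0.27 for members and 0.36 for all genes tested. These sets differ in depth: genes tested had a mean expected count of 10 or more. The lowest count of a member with reads was 400 (Hnrnph3, replicate 2), and genes of matched counts were not compared. By direction, 16 of 20 hnRNP genes (median log2 ratio 0.31) and 7 of 9 SF3A and SF3B genes (0.16) had the higher value in replicate 2, as had 4 of 10 expressed SR genes, 1 of 2 Tra2 genes and 0 of 3 U2AF genes. Over all tested genes 48.0% had it there. The median over all tested genes was -0.03.

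**Figure D2:**
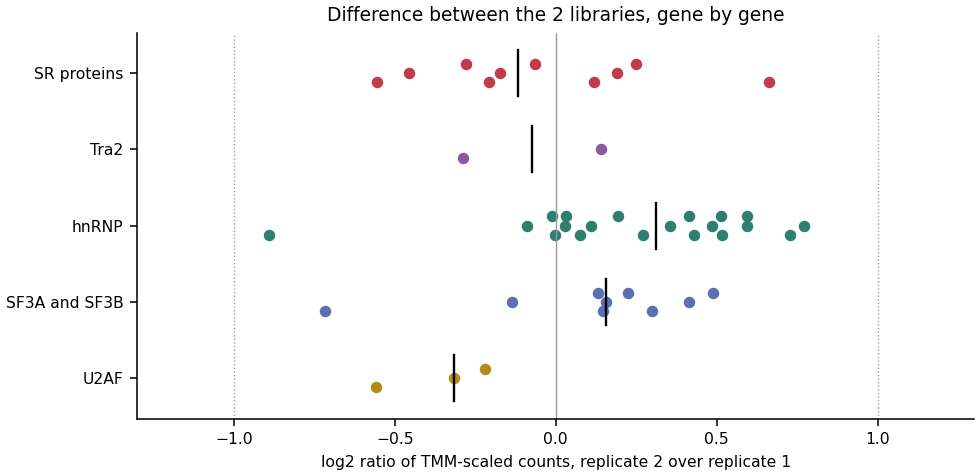
Log2 ratio of scaled counts, replicate 2 over replicate 1, for the 44 members with reads, by family; black ticks are family medians and dotted lines mark 2-fold. No point lies beyond the dotted lines, and most hnRNP points lie to the right of 0.

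Gene level and level of coding transcripts did not always go together. Each transcript's share of its gene is given per length, as percent of the gene's TPM. Summed over members, protein-coding transcripts held 85.9% of TPM in replicate 1 and 82.5% in replicate 2, and NMD transcripts 8.16% and 11.3%. Hnrnpu alone held 123 of the 326 TPM in NMD transcripts in replicate 1 and 227 of 572 in replicate 2. Of the 39 members with a transcript of another type, the median coding share was 87.1% in replicate 1 and 88.1% in replicate 2, and over the 5052 such genes at 10 TPM it was 96.8% and 96.5%.

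NMD transcripts were annotated for 25 members, and 9 of the 25 held 10% or more of their TPM in them in both libraries. Over the 1883 genes at 10 TPM with such a transcript, the share was 19.0%. The median NMD share was 9.13% and 6.68% in members and 1.70% and 1.83% in all these genes. The 9 were Srsf2, Srsf3, Srsf4, Srsf6, Hnrnpa1, Hnrnpd, Hnrnpdl, Hnrnph3 and Hnrnpu: 4 of 9 SR genes and 5 of 10 hnRNP genes with such a transcript. It is annotated for only 1 SF3A or SF3B gene, for 2 Tra2 genes and for 3 U2AF genes. All 9 were also at 10% or more in both libraries in a second quantification, derived from the reads and an index with no alignment file listed, per notes deposited with each sample. It put 13 members there, the others being Tra2a, Tra2b, Hnrnpll and U2af1l4, the last with 9.87% and 17.3% in the first quantification and 11.1% and 18.5% in the second. A retained-intron share of 10% or more in both libraries was seen in 2 of the 34 members with such a transcript, Srsf1 and Srsf11, against 13.4% of 3939 genes. The second quantification put 5 there. Shares over all genes were not computed in the second quantification, so its counts of 13 and 5 have no background beside them.

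**Figure D3:**
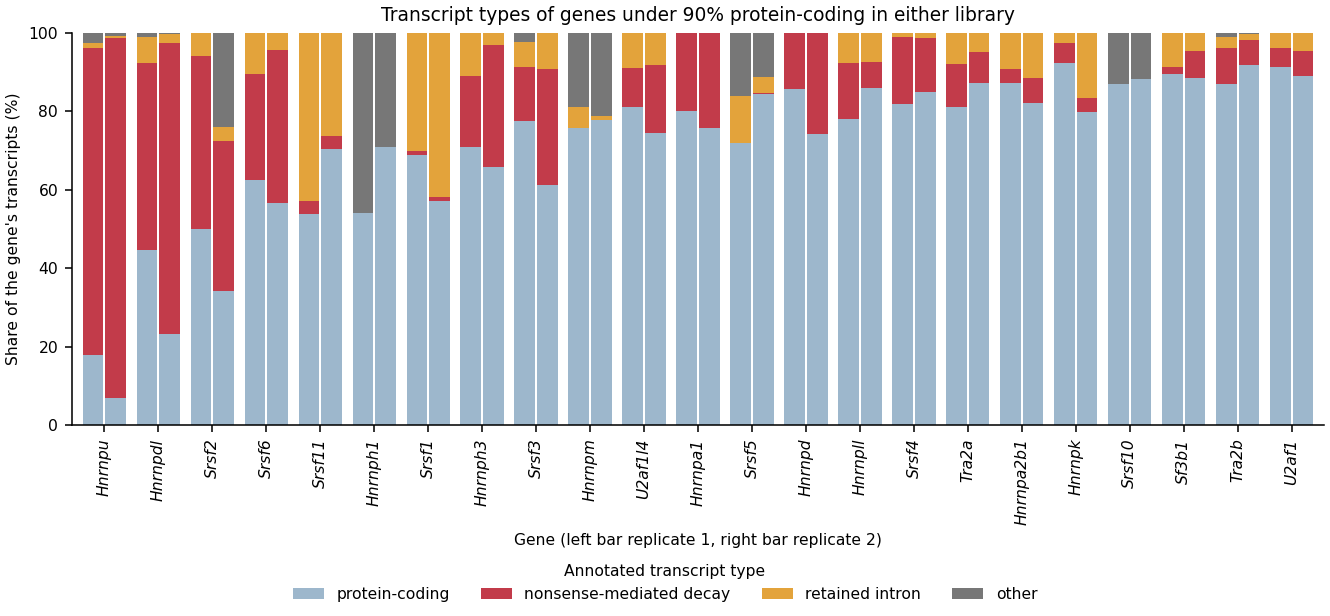
Share of each gene's TPM (%) in protein-coding, NMD, retained-intron and other (processed) transcripts for the 23 members under 90% coding in either library; the left bar of each pair is replicate 1 and the right bar replicate 2. Hnrnpu and Hnrnpdl have the smallest coding shares in both libraries.

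In 14 NMD transcripts of members the share was 5% or more in both libraries, and the annotated stop lay 90 to 1015 bases ahead of the last exon junction, in each case over the 50 bases by which such transcripts are commonly defined. In 6 of the 14 the stop fell in bases that no coding transcript of the gene contains. Neither count was made over all annotated NMD transcripts. The label does not follow the distance alone, since Hnrnpa2b1-202, labelled protein-coding, has its stop 157 bases ahead of the last junction. It held 16.5% of its gene's TPM in replicate 1 and 13.9% in replicate 2, and counts as coding here. Except in Srsf4-204, the sequences below are the stretches that end the reading frame early. Srsf4-204 is a fragment whose start is not annotated, and 0 of its coding bases are shared with the frame of Srsf4-202. No early end of that frame is thus shown. All sequences run from the start of the exon with the stop to the stop codon, which is in capitals. They are from the GENCODE M21 transcripts, on mm10, at chr17:29039454-29039487 (plus strand) for Srsf3, chr2:162932815-162932966 (plus) for Srsf6, chr6:49252965-49253108 (minus) for Tra2a, chr16:22259181-22259261 (minus) for Tra2b, chr17:80044976-80045022 (minus) for Hnrnpll and chr4:131884295-131884390 (plus) for Srsf4.
Srsf3-201: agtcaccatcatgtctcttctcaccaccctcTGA
Srsf6-201: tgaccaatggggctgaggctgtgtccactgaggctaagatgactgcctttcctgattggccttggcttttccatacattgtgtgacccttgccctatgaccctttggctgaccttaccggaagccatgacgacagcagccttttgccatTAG
Tra2a-202: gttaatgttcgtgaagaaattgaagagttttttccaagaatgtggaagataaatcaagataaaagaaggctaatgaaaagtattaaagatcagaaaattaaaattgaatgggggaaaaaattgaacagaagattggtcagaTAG
Tra2b-206: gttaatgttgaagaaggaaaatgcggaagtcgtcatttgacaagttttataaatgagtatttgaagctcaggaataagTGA
Hnrnpll-203: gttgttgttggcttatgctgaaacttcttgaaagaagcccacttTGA
Srsf4-204: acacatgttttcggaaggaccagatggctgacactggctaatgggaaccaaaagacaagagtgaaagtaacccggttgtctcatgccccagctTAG

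The stretch of Srsf3-201 opens exon 4 of 7, an exon of 456 bases that Srsf3-202, the coding transcript, skips. The stop comes after 34 bases of it, stop included. Srsf3-201 held 13.6% of the gene's TPM in replicate 1 and 20.9% in replicate 2, and 23.3% and 46.8% in the second quantification. Srsf3-202 was at 51.1 and 30.1 TPM, while Srsf3-201 was at 8.98 and 10.3 TPM. The deposited interval of the coding transcript was 47.7 to 51.4 TPM in replicate 1 and 27.0 to 30.6 in replicate 2, apart from each other, and those of Srsf3-201 overlapped (7.41 to 9.70 and 8.11 to 11.2 TPM). These intervals are the authors', at a level the sources used here do not give.

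In Srsf6-201 the stop lies in exon 3 of 7, an exon of 268 bases absent from the coding transcript Srsf6-203, and comes 152 bases into it. Srsf6-202, a coding transcript at 0 TPM in both libraries, shares the bases of this stop, so Srsf6-201 is not among the 6. Srsf6-201 held 26.8% of TPM in replicate 1 and 39.2% in replicate 2. In the second quantification it held 56.6% and 69.7%, more than Srsf6-203 at 28.2% and 24.7%. Which of the 2 transcripts leads thus depended on the quantification, in both libraries. The gene's level was close in both libraries, 41.7 and 42.9 TPM.

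The exons of Tra2a-202 and Tra2b-206 are alike in place and in letters. Both are exon 2, after a first exon that holds 36 bases of the frame, and both begin with the same 9 bases. The triplet GAA, which Tra2 proteins are known to bind, was counted on the transcript strand, where it cannot overlap itself. It occurred 32 times in the 306 bases of the Tra2a exon and 28 times in the 276 bases of the Tra2b exon, or 10.5 and 10.1 per 100 bases. Among all internal exons of protein-coding transcripts within 10% of those lengths, the median was 2.02 and 1.97 per 100 bases, and 0.0900% and 0.0612% of them held GAA as densely. The Srsf3 and Srsf6 exons held 3 and 2 copies, and 91.3% and 89.2% of exons of their length were at least as dense. The Hnrnpll exon held 5 in 83 bases, or 6.02 per 100, against a median of 2.44, and 6.35% of exons of its length were as dense.

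Tra2a-202 held 10.8% of TPM in replicate 1 and 7.75% in replicate 2 in the first quantification, but 31.0% and 32.1% in the second. Tra2b-206 held 9.13% and 6.46%, and 14.6% and 15.0% in the second. In Hnrnpll, a regulator of CD45 splicing in lymphocytes, exon 7 of Hnrnpll-203 (83 bases) ends the frame after 47 bases, and the transcript held 14.2% and 6.68%, against 22.8% and 22.2%. Srsf6, Tra2a and Hnrnpll were the members whose coding share differed by over 20 points between the quantifications in both libraries: 62.5% and 56.4% against 28.2% and 24.7% for Srsf6, 81.1% and 87.2% against 60.4% and 61.4% for Tra2a, and 78.1% and 85.9% against 53.0% and 60.03% for Hnrnpll. Over the 44 members the median difference was 2.61 points in replicate 1 and 1.49 in replicate 2, and the second quantification gave the lower coding share in 35 and 29 members. Srsf4-204, a fragment whose start is not annotated, held 11.4% and 9.59%.

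**Figure D4:**
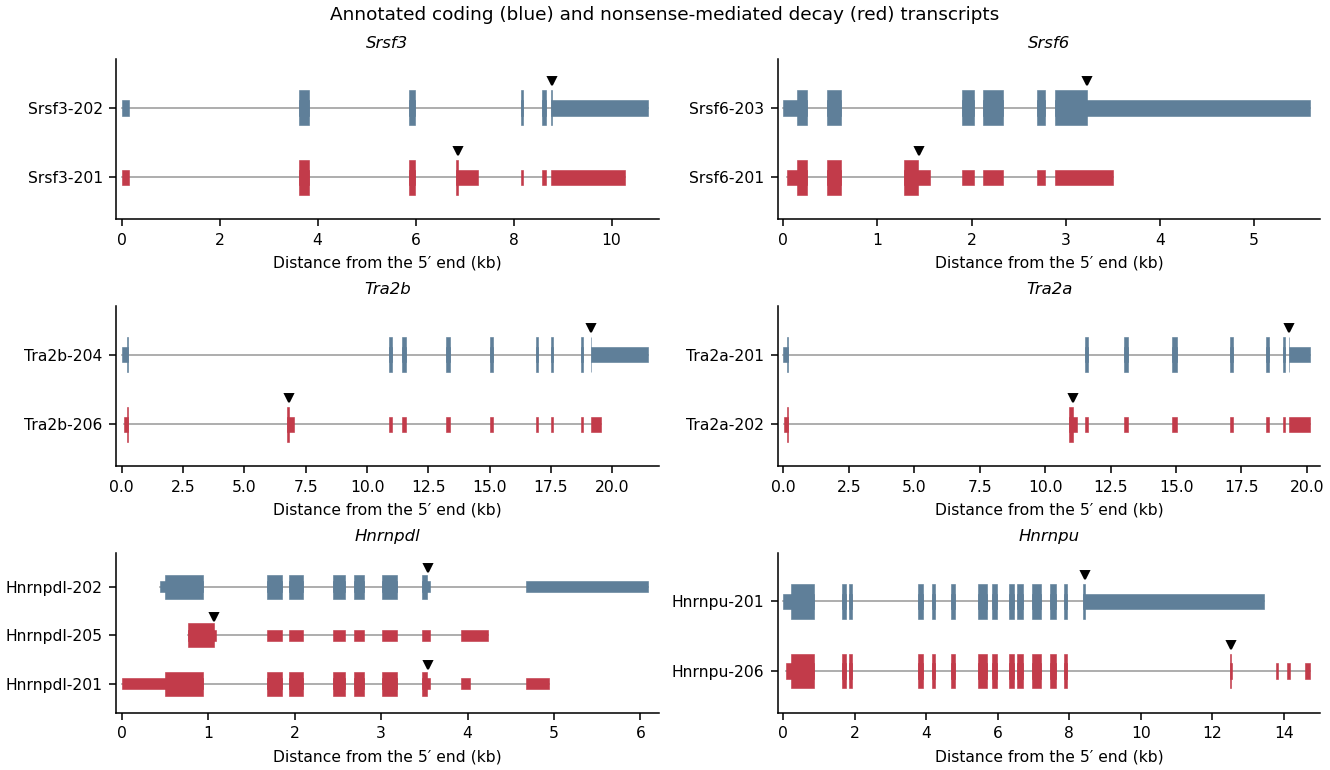
Exons (boxes, tall where coding) of coding transcripts (blue) and NMD transcripts (red) of 6 genes, with introns as lines, against distance from the 5' end in kb; black triangles mark the stop codon. In Srsf3, Srsf6, Tra2b and Tra2a the red stop sits in an exon the blue transcript skips, and in Hnrnpu it sits beyond the blue stop.

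Hnrnpdl showed both kinds of NMD transcript. Its protein, like those of Hnrnpd and Hnrnpab, has a pair of RNA-binding domains. Hnrnpdl-201 contains the whole coding frame of Hnrnpdl-202, 420 codons, followed by 2 exon junctions after the stop, and held 29.4% of TPM in replicate 1 and 13.8% in replicate 2. Hnrnpdl-205 is a fragment whose start is not annotated, and its record begins inside the first coding exon. It extends that exon past the splice site used by Hnrnpdl-202, to a stop. The added stretch is shown because it ends the frame of a transcript with a large difference between the libraries. It lies at chr5:100038593-100038719 (minus strand, mm10), with the stop in capitals.
Hnrnpdl-205: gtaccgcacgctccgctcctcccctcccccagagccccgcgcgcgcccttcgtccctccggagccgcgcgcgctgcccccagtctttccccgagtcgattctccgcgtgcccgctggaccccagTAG

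Hnrnpdl-205 was at 10.6 TPM in replicate 1 and 71.8 TPM in replicate 2, with deposited intervals of 8.25 to 12.6 and 63.8 to 73.2 TPM. Its share was 18.4% and 60.2%, and 20.7% and 58.4% in the second quantification. The gene as a whole was at 57.6 and 119 TPM, 2.07-fold apart by TPM and 1.71-fold by scaled counts. Its coding transcripts were at 25.6 and 27.8 TPM, 1.08-fold apart, and its NMD transcripts at 27.6 and 88.3 TPM, 3.20-fold apart. The coding share, 44.5% and 23.3%, was the member's that differed most between libraries, and the only one by over 20 points.

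Hnrnpu, a large nuclear RNA- and chromatin-binding protein also called SAF-A, had the lowest coding share of the members. NMD transcripts held 78.3% of its TPM in replicate 1 and 91.5% in replicate 2, and 73.3% and 92.1% in the second quantification. Nearly all of this was Hnrnpu-206, at 123 and 227 TPM, while the only coding transcript, Hnrnpu-201, was at 28.0 and 17.3 TPM. Hnrnpu-206 shares 2349 of the 2400 coding bases of Hnrnpu-201. They part after exon 13, where Hnrnpu-201 goes on into a last exon of 5065 bases. Hnrnpu-206 joins instead an exon of 71 bases that lies within that last exon, past the stop of Hnrnpu-201. This exon of Hnrnpu-206 holds another stop, with 3 junctions after it. The end of the frame of Hnrnpu-201, which Hnrnpu-206 lacks, lies at chr1:178329354-178329407 (minus strand, mm10).
Hnrnpu-201: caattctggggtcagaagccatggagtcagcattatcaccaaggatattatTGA

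The annotation tags Hnrnpu-206 as a readthrough transcript. It is 2844 bases long against 7640 for Hnrnpu-201, and 267 of its bases and 4 of its introns are in no coding transcript. The last exons of Hnrnpu-206 lie past the end of Hnrnpu-201, and Hnrnpu overlaps the gene Cox20. How reads were split between these genes was not tested. Hnrnpu lies at chr1:178321108-178337797 on the minus strand. Its level was 157 and 248 TPM, higher in replicate 2, where Hnrnpu-206 was higher and the coding transcript lower.

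Srsf2 had coding shares of 50.01% in replicate 1 and 34.1% in replicate 2. Its NMD share was 43.99% and 38.2%, all in Srsf2-204, at 48.5 and 48.7 TPM. This is a fragment of 620 bases with no base and no intron of its own, 448 of its bases overlap exons of Mettl23 on the other strand, and the strand of the counting is not given in the sources used here. The second quantification gave 40.0% and 20.7%. A processed transcript, Srsf2-205, was at 0 TPM in replicate 1 and 30.6 TPM in replicate 2. The coding part of Srsf2 was 55.2 and 43.5 TPM, lower in replicate 2. The gene as a whole was higher there by TPM but lower by scaled counts (log2 ratio -0.21).

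The other hnRNP genes among the 9 carried NMD transcripts with changes near the 3' end or in the body. Hnrnpa1-203 contains the full frame of 320 codons and has 2 junctions after the stop, and held 15.6% and 22.8% of TPM. Hnrnpa1 protein is a classic antagonist of SR proteins. Hnrnpd-208, of the AU-rich element binder also called AUF1, is a fragment whose start is not annotated, and held 10.5% and 25.1%. Its level was 15.4 and 61.4 TPM, with intervals of 10.6 to 18.5 and 51.6 to 64.1 TPM. The leading coding transcript, Hnrnpd-210, is also a fragment, of 493 bases, and its end is not annotated. It held 38.3% and 40.7% and counts as coding here by its label, although its structure past that end is not known. Hnrnph3-204 held 17.9% and 31.0%, at a gene level of 12.1 TPM. In all 3 genes, as in Hnrnpu and Hnrnpdl, the NMD share was higher in replicate 2 in the first quantification, while Hnrnpa1 had 22.53% and 22.01% in the second. Of the 25 members with an NMD transcript, 16 had the higher share in replicate 2 and 8 in replicate 1, against 828 and 749 of the 1883 genes. The second quantification gave 15 and 10 members.

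**Figure D5:**
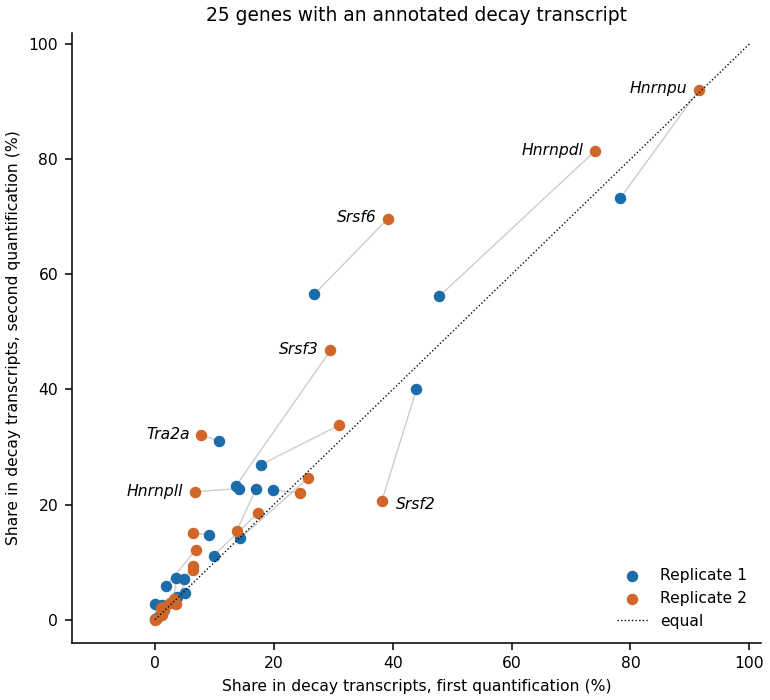
Share of TPM (%) in NMD transcripts in the first (x) and second (y) quantification for the 25 members with such a transcript; blue is replicate 1, orange replicate 2, grey lines join a gene's libraries, names stand at replicate 2, and the dotted line marks equal shares. Srsf6, Srsf3, Tra2a and Hnrnpll lie above the line, and Srsf2 lies below it.

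Retained introns were led by Srsf1 and Srsf11. In Srsf1 the share was 30.1% in replicate 1 and 41.8% in replicate 2, nearly all in Srsf1-203, a transcript of 759 bases that has no base outside coding transcripts and 1 intron of its own. Its coding shares were 68.9% and 57.0%, split between Srsf1-205, with 248 codons (32.6% and 35.4%), and Srsf1-201, with 201 codons (34.7% and 21.5%). Srsf11 had a retained-intron share of 42.8% and 26.5%, spread over several of its 11 such transcripts, of which Srsf11-208 held 11.7% and 4.99%. The median retained-intron share was 4.30% and 3.44% over the 34 members with such a transcript, and 1.47% and 1.23% over all such genes.

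SF3A, SF3B and some hnRNP genes were almost wholly coding. Hnrnpf, Hnrnpab and Sf3b4 had a coding share of 100% in both libraries and stand for 12 members at 10 TPM with a mean share of 99% or more. For Hnrnpf and Hnrnpab, and for Hnrnph2 and Hnrnpa0 among the 12, no other type is annotated, so their share of 100% was fixed in advance. How many of all genes reach 99% was not counted. The median over the 5052 genes at 10 TPM with another type was 96.8% and 96.5%. In SF3A and SF3B the 8 genes with another type had a median coding share of 98.6% and 97.7%, and the lowest was Sf3b1, at 89.5% and 88.3%. In the SR group the medians were 74.7% and 77.3%, over 10 genes.

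Between the libraries, the coding share of 10 of 39 members differed by 10 points or more, against 18.6% of the 5052 genes at 10 TPM with another type. It was lower in replicate 2 in 7 (Srsf1, Srsf2, Srsf3, Hnrnpd, Hnrnpdl, Hnrnpk and Hnrnpu) and higher in 3 (Srsf5, Srsf11 and Hnrnph1). The second quantification also gave 10, of which 7 were the same genes: Srsf1, Hnrnpk and Hnrnpu were under 10 points there, and Hnrnpa2b1, Hnrnpm and Sf3a1 over. In Hnrnpk a short retained-intron transcript, Hnrnpk-215, was at 0.73 TPM in replicate 1 and 56.6 in replicate 2. Only 33 of its 522 bases are in no coding transcript, and it has no intron of its own. Its share in replicate 2 was 15.2%, and 7.65% in the second quantification. Hnrnpk-214, at 13.3% and 20.6%, is a coding fragment whose end is not annotated. In Srsf5 the coding transcripts were 1.96-fold higher in replicate 2 and the gene 1.67-fold. In Hnrnpa2b1 the coding level was 307 TPM in replicate 1 and 308 in replicate 2.

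The transcript with the largest share was the same in both libraries in 39 of 44 members, and the same in both libraries and both quantifications in 33. It was coding in both libraries in 40, the others being Hnrnpu, Srsf2, Hnrnpdl and Srsf1. The 5 with another leading transcript in replicate 2 were Srsf1, Tra2b, Hnrnpa3, Hnrnpdl and Hnrnpr. None of these counts was made over all genes, so no background share stands beside them. In Tra2b, Tra2b-204, with 288 codons, held 56.8% in replicate 1 and 35.6% in replicate 2, and Tra2b-201, which lacks 300 of its coding bases, held 30.1% and 56.1%. In the second quantification Tra2b-201 led in both. In TPM, Tra2b-204 was at 36.1 and 30.9 and Tra2b-201 at 19.1 and 48.7, so the shorter frame carried the difference between the libraries.

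Hnrnpa3 differed most between the quantifications in gene level, with 91.1 and 106 TPM in the second against 270 and 335 in the first, and was the only member whose second value was lower by over 1.5-fold in both libraries. Hnrnpa3-207, of 1074 bases, which is the frame with no untranslated part, was at 46.0 and 182 TPM in the first quantification and held 0% and 0.0072% in the second. Hnrnpa3-204 was at 137 and 24.3 TPM, with intervals of 124 to 143 and 14.8 to 30.2 TPM. Genes of this family have processed copies elsewhere in the genome, and how reads shared with such copies were split was not tested, so the level of Hnrnpa3 is uncertain.

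Coding isoforms that differ by a short stretch were present side by side. Hnrnpab-203 (332 codons, 52.6% and 62.7%) and Hnrnpab-201 (285 codons, 46.6% and 37.0%) differ by 141 coding bases. In Hnrnpa2b1, Hnrnpa2b1-204 (341 codons) held 29.7% and 31.0% and Hnrnpa2b1-201, which lacks 120 coding bases, 28.6% and 22.9%. U2af2-201 (471 codons) held 69.6% and 68.9%, and U2af2-209, with 12 coding bases more, 26.5% and 24.4%. The order within each of these pairs was the same in both libraries and in both quantifications, but the pairs were chosen after their values were seen. Not every close pair kept its order. In the second quantification Hnrnpc-206 and Hnrnpc-211 held 12.1% and 18.6% in replicate 1, and 14.0% and 10.7% in replicate 2.

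The rest of the splicing machinery gave a frame for these levels. At 10 TPM or more in both libraries were 16 of 18 snRNP protein genes, 13 of 14 genes of the tri-snRNP and catalytic core, all 7 partners at the branch site and 3' splice site, 29 of 33 other splicing regulators and 12 of 15 genes of the exon junction complex and of NMD itself. Their median levels were 55.1, 36.7, 55.1, 74.2 and 20.1 TPM. In the snRNP list 3 genes were 2-fold or more higher in replicate 1, among them Snrpb, a core Sm protein, at 115 and 49.2 TPM, and in the regulators Srrm1 was higher in replicate 2, at 88.1 and 239 TPM. The helicase gene Upf1, which NMD requires, was at 20.6 and 19.7 TPM.

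The kinases that phosphorylate SR proteins varied in coding share between genes and libraries. Of 6, 4 were at 10 TPM or more in both libraries, and the median coding share of these 4 was 65.2% in replicate 1 and 55.7% in replicate 2. Srpk1 had a coding share of 63.1% and 85.0%, and Clk3 of 84.3% and 47.4%. Clk4 had 18.6% and 12.8% in NMD transcripts and 22.5% and 39.3% in retained-intron transcripts. Clk1 had 13.4% and 21.6% in NMD transcripts. Among the other regulators Tardbp, which encodes TDP-43, had 43.2% and 35.9% in NMD transcripts. Of the 17 regulators at 10 TPM with such a transcript, 4 held 10% or more in both libraries, against 19.0% of all 1883 such genes. In the exon junction and NMD list it was 0 of 3, and in the snRNP list 1 of 5.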

How the data were processed

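The authors deposited, for each of 2 polyadenylated RNA libraries, a gene table of expected counts and TPM, a transcript table with the percent of each gene's TPM per transcript (isoform percent) and interval bounds, and a second transcript table of estimated counts and TPM, per the file headers. Genome mm10 and GENCODE M21 are named in notes deposited with each sample. No source used here names the programs. Isoform percents were summed by annotated transcript type and rescaled to 100. Expected counts were scaled by trimmed mean of M values (edgeR 4.0.16, no model fitted), 0.5 reads were added, and log2 ratios were taken for genes with a mean expected count of 10 or more. The script was tested on simulated data. Transcript structures and sequences came from GENCODE M21.

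Members, gene lists and markers were chosen with earlier results of these data known. Named by rule were the 4 highest genes of each group (all in groups of up to 4), members under 1 TPM, 2-fold apart, with an NMD or retained-intron share of 20% or more in both libraries, with the 3 lowest or highest coding shares (ties at 100%), or with quantifications over 20 points apart. Other genes named, the coding isoforms, the sequences and the GAA count were chosen after their values were seen. Depth was 45341960 and 32087664 expected counts. Alternatives varied thresholds, quantification, scaling, the share's unit and the library left out.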

Additional observations from a re-analysis of the deposited data

How the results depend on the processing

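Members at 10 TPM or more were 43, and 40 to 44 under the alternatives run, and the median log2 ratio between the libraries, 0.14, ranged from 0.07 to 0.19. Depth limits single transcripts: Hnrnpm-209, of 380 bases, was at 14.1 TPM in replicate 1 with a deposited interval of 7.15 to 20.9 TPM. The cause of the moves below was not tested. The median member level, 65.9 TPM, was 59.5 TPM in the second quantification and 71.6 TPM after rescaling to protein-coding genes, and 61.7 to 67.4 TPM with 1 library left out. The median coding share over members with reads, 89.6%, was 86.2% in the second quantification, 96.9% as share of expected counts, 88.5% from posterior mean TPM (chosen after seeing the data) and 90.1 to 91.7% with 1 library left out. The median retained-intron share over the same members, 1.81%, was 2.52% and 2.29% in the second quantification and from posterior means. The median NMD share, 1.0%, was 0.26% as share of expected counts and 0.64 to 1.1% with 1 library left out. Members with 10% or more in retained-intron transcripts were 2, but 8 at a threshold of 5%, 5 in the second quantification, and 4 to 5 with 1 library left out (5 in replicate 1 alone, 4 in replicate 2 alone). Members with that much in NMD transcripts were 9, and 4 at a threshold of 20%. The count 2-fold apart was 0, and 1 (Hnrnpdl) by the ratio of TPM. The count with coding shares 10 points apart was 10, and 16 at 5 points and 1 at 20 points. No paired analysis was possible because there is 1 group.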
